A study of Mus musculus with 30 samples.

Results

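The itaconate enzyme gene Acod1 and 9 chitinase-like, arginine-enzyme and acute-phase genes were followed across 30 RNA-seq libraries of mouse heart. The 10 genes were Acod1, Chil1, Chil3, Arg1, Nos2, Il1rn, Saa3, Lcn2, S100a8 and S100a9, out of the 55487 gene identifiers in the deposited count table. They were found by their symbol in the GENCODE mouse annotation. The set was drawn up because Acod1 and Chil1 were high in knockout hearts under pressure overload. Every value of these genes that sets those hearts against another group is therefore a description and carries no test. The study asked what Cpt1a, the gatekeeper of mitochondrial fatty acid import, does in the stressed heart. Transverse aortic constriction (TAC), a clip across the aorta that overloads the left ventricle, or a sham operation was performed. RNA of the heart was taken 8 weeks after surgery. Clips of 0.016 or 0.018 inch were used, and the labels do not say which animal received which.

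The floxed cohort had 4 groups of 4 libraries. FF_sham and FF_TAC were Cpt1a-floxed mice after sham surgery or TAC, and KO_sham and KO_TAC were mice with cardiac-specific Cpt1a knockout after the same operations; the promoter that drives the deletion and the ages are not given in the sources used here. KO_TAC was identified by its genotype and treatment labels, since its titles mention sham as well as TAC. The AAV9 cohort had PBS_sham and PBS_TAC (C57Bl/6 mice given buffer, 3 libraries each) and AAV_sham and AAV_TAC (C57Bl/6 mice given AAV9.Cpt1a, a virus that expresses Cpt1a from the cardiac troponin T promoter, 4 libraries each). Levels are CPM, the count of a gene scaled to a common library size (counts per 1000000), with the total adjusted by TMM factors. Library totals ran from 14839758 to 22070373 counts, so that 1 count was worth about 0.05 CPM.

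Acod1 makes itaconate from a Krebs cycle intermediate in the mitochondria of activated macrophages, and itaconate inhibits succinate dehydrogenase. Chil1 and Chil3 are chitinase-like proteins that bind sugars without cutting chitin. Nos2 and Arg1 compete for arginine and are the classical pair of macrophage activation enzymes. Il1rn is the secreted antagonist of the interleukin-1 receptor, Saa3 and Lcn2 are acute-phase proteins, and S100a8 with S100a9 forms calprotectin, an abundant protein of neutrophils.

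Several libraries stood apart, and the members moved with them. Summed haemoglobin transcripts (CPM of the library total, without TMM scaling, as for all marker sums here) were 1.40 to 51.1 CPM in 7 libraries, namely all 4 of KO_TAC, FF_TAC 2, FF_TAC 3 and KO_sham 2, while the other 23 had 293.9 CPM or more. The same 7 had 2085 to 6477 summed CPM of 12 early response genes such as Fos, against 221 to 1184 in the other 23. KO_TAC 1 held 749 summed CPM of 7 lung epithelium markers, against at most 13.4 CPM in any other library. They were led by Scgb1a1 with 12216 counts, and Cldn18 was at 0. The sum of 3 atrial markers ran from 1.28 CPM in AAV_TAC 2 to 9567 CPM in KO_TAC 1, so the share of atrial transcripts differed widely between libraries. Cpt1a itself was 37.8 to 52.7 CPM in FF_sham and 11.1 to 19.6 CPM in KO_TAC. The library labelled KO_sham 2 had 46.3 CPM of Cpt1a against 20.3 to 23.7 CPM in the other 3 of that label, and FF_TAC 2 and FF_TAC 3 had 20.3 and 16.2 CPM against 48.9 and 34.0 CPM in FF_TAC 1 and FF_TAC 4. The Cpt1a levels of these 3 libraries go against their genotype labels, which may be wrong. The libraries are named by those labels, and the mean of Acod1 in FF_TAC and KO_sham is given with and without them. The fitted differences from FF_TAC and the calls of list genes are not given without both FF_TAC 2 and FF_TAC 3. In the AAV9 cohort Cpt1a was 56.3 to 88.4 CPM in AAV_sham and 37.4 to 68.0 CPM in PBS_sham. After TAC it was 44.8 to 62.7 CPM in AAV_TAC and 40.3 to 61.6 CPM in PBS_TAC. Both pairs overlapped, so the comparisons of vector and buffer go by the labels and not by a shown rise of Cpt1a. In bulk RNA, fewer cells of a type and less RNA per cell cannot be told apart.

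Promoter windows from RefSeq (GRCm38.p6, the build of the files) were held for 8 of the 10 members, and 4 are printed, each 5′ to 3′ on the gene's strand and cut before any annotated exon; that of Lcn2 lies within its annotated gene and was left out. Acod1 and Chil1 are shown because the set was drawn up for them, Il1rn because it moved with Acod1, and Saa3 as an acute-phase gene. Capitals mark a match to 1 of 4 motifs searched on both strands.
Acod1: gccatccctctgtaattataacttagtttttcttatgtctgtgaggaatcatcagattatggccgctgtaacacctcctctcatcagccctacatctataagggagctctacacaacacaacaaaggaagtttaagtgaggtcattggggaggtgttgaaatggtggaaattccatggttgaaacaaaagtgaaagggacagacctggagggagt
Chil1: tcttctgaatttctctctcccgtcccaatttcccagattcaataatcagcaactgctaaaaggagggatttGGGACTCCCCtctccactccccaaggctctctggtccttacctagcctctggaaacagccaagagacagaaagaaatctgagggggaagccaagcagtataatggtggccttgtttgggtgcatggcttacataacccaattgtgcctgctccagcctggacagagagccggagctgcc
Il1rn: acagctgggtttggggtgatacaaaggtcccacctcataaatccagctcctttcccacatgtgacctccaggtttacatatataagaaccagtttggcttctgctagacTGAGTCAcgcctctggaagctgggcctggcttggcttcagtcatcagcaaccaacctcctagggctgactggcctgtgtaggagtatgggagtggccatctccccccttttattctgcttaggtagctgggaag
Saa3: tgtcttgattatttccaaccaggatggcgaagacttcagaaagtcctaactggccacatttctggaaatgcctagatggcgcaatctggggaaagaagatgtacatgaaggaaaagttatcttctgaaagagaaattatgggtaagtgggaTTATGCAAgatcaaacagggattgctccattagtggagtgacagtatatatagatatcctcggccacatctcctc
The window of Acod1 (chr14:103046762-103046976, plus strand) held no match, which says only that these letters are not in this stretch. Chil1 (chr1:134181906-134182155, plus strand) held a match to the NF-kB motif whose first base lies at position -179 from the RefSeq start, and 3.90% of all 32851 windows of 250 bases before a start hold one. Il1rn (chr2:24336610-24336852, plus strand) held TGAGTCA, a match to the AP-1 motif TGANTCA, at position -141, a motif found in 6.75% of windows. Saa3 (chr7:46715701-46715926, minus strand) held TTATGCAA at position -99, which is TTGCNNAA (C/EBP) read on the other strand and is matched in 9.56% of windows. C/EBP letters were also found for S100a9, and the STAT motif TTCNNNGAA, present in 7.02% of windows, for Chil3. These matches are descriptions of letters and show no binding.

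Acod1 (ENSMUSG00000022126, chromosome 14, 103046977 to 103056573, plus strand) was close to silent in 23 of the 30 hearts and reached its highest levels in KO_TAC. In KO_TAC 1 to 4 it had 98, 213, 583 and 589 counts, which is 4.83, 16, 32.4 and 35.1 CPM. In FF_TAC 1 to 4 it had 0.0548, 1.51, 3.37 and 0.0553 CPM. KO_sham 1 to 4 gave 0.0922, 0.790, 0.0520 and 0 CPM, and FF_sham 1 to 4 gave 0, 0.0545, 0.114 and 0.0617 CPM. Every KO_TAC library lay above every other library of the series. Within FF_TAC and KO_sham the libraries above 0.2 CPM were FF_TAC 2, FF_TAC 3 and KO_sham 2, the same 3 that were low in haemoglobin transcripts. Over all 30 hearts, Acod1 was 0.790 to 35.1 CPM in the 7 haemoglobin-low libraries and 0 to 0.200 CPM in the other 23, with no overlap. The group means were, in order, 22.1 ± 14.3 CPM in KO_TAC (SD, n = 4), 1.25 ± 1.57 in FF_TAC, 0.234 ± 0.373 in KO_sham, 0.108 ± 0.0705 in AAV_TAC, 0.0575 ± 0.0466 in FF_sham, 0.0316 ± 0.0283 in PBS_sham (n = 3), 0.0195 ± 0.0338 in PBS_TAC (n = 3) and 0.0153 ± 0.0307 in AAV_sham. Without the libraries whose Cpt1a goes against the label, the mean was 0.0550 CPM in FF_TAC (n = 2) and 0.0481 CPM in KO_sham (n = 3). Neighbours in the order of all libraries overlapped, except KO_TAC and FF_TAC.

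**Figure D1:**
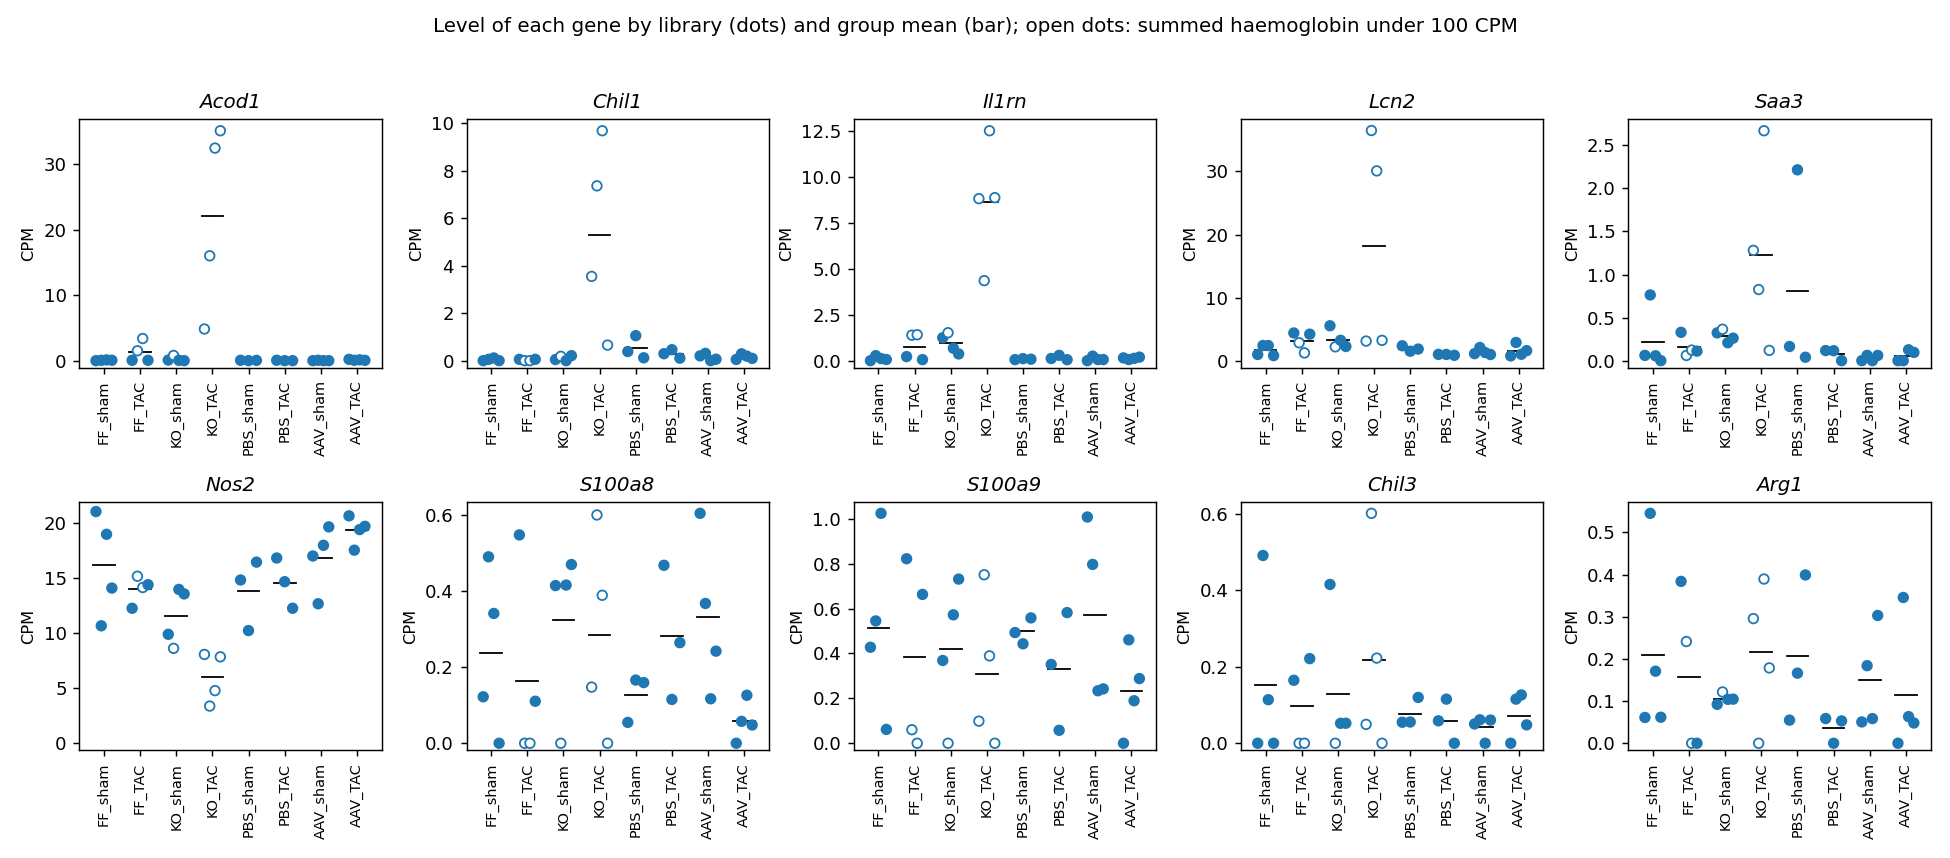
Level of each of the 10 genes (CPM, linear axis, a scale of its own in each panel) in 30 libraries by group; dots are libraries, bars are group means, and open dots are the 7 libraries with summed haemoglobin transcripts under 100 CPM. Acod1, Chil1 and Il1rn are highest in KO_TAC, where Lcn2 is split into 2 libraries at 30.1 and 36.5 CPM and 2 at 3.10 and 3.22 CPM, and Nos2 is lowest.

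Chil1 (ENSMUSG00000064246, chromosome 1, 134182176 to 134190181, plus strand) was also highest in KO_TAC but did not share the pattern of Acod1 elsewhere. KO_TAC 1 to 4 had 72, 98, 174 and 11 counts, or 3.55, 7.36, 9.68 and 0.655 CPM. FF_TAC had 1, 0, 0 and 1 counts, and KO_sham had 0.0461, 0.182, 0 and 0.209 CPM. FF_sham 1 to 4 gave 0, 0.0545, 0.114 and 0 CPM, so all 4 KO_TAC libraries exceeded the other 12 of the cohort. FF_TAC 2 and FF_TAC 3, where Acod1 was raised within their group, had no count of Chil1. Since every FF_TAC library had 3 counts or fewer, the KO_TAC mean of 5.31 ± 4.0 CPM (SD, n = 4) was at least 30.6-fold higher, taking 3 counts in each FF_TAC library. KO_TAC 4, which had the most Acod1, had the least Chil1 of its group, and 1 library outside the cohort, PBS_sham 2, exceeded it with 1.05 CPM. The mean of KO_TAC without KO_TAC 1, the library with lung transcripts, was 5.90 ± 4.69 CPM for Chil1 and 27.8 ± 10.3 CPM for Acod1 (SD, n = 3).

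Chil3 (Ym1, a product of alternatively activated macrophages; chromosome 3, 106147554 to 106167564, minus strand) stayed at 9 counts or fewer in every library. KO_TAC had 1, 8, 4 and 0 counts, FF_TAC 3, 0, 0 and 4, KO_sham 9, 0, 1 and 1, and FF_sham 0, 9, 2 and 0. All groups overlapped, and 4 of the 7 haemoglobin-low libraries had no count. At these depths no difference of Chil3 between groups was detectable, and the gene did not pass the filter on low counts in either cohort.

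Il1rn (ENSMUSG00000026981, chromosome 2, 24336853 to 24351494, plus strand), the brake on interleukin-1 signalling, followed Acod1. KO_TAC 1 to 4 had 8.82, 4.36, 12.5 and 8.87 CPM and FF_TAC 1 to 4 had 0.219, 1.39, 1.41 and 0.0553 CPM. KO_sham gave 1.24, 1.52, 0.676 and 0.366 CPM, and FF_sham 0, 0.273, 0.114 and 0.0617 CPM. The 4 KO_TAC libraries lay above the other 26, and the 4 KO_sham libraries above the 4 of FF_sham. Unlike Acod1, Il1rn in KO_sham was not a matter of KO_sham 2 alone: the 3 haemoglobin-high KO_sham libraries had 0.366 to 1.24 CPM, all above the highest FF_sham value of 0.273 CPM. The 7 haemoglobin-low libraries had 1.39 to 12.5 CPM of Il1rn and the other 23 had 0 to 1.24 CPM. Pearson's r of Il1rn with Acod1 over the 30 libraries was 0.91 on log2 CPM, a description across libraries that share the same few high samples.

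**Figure D2:**
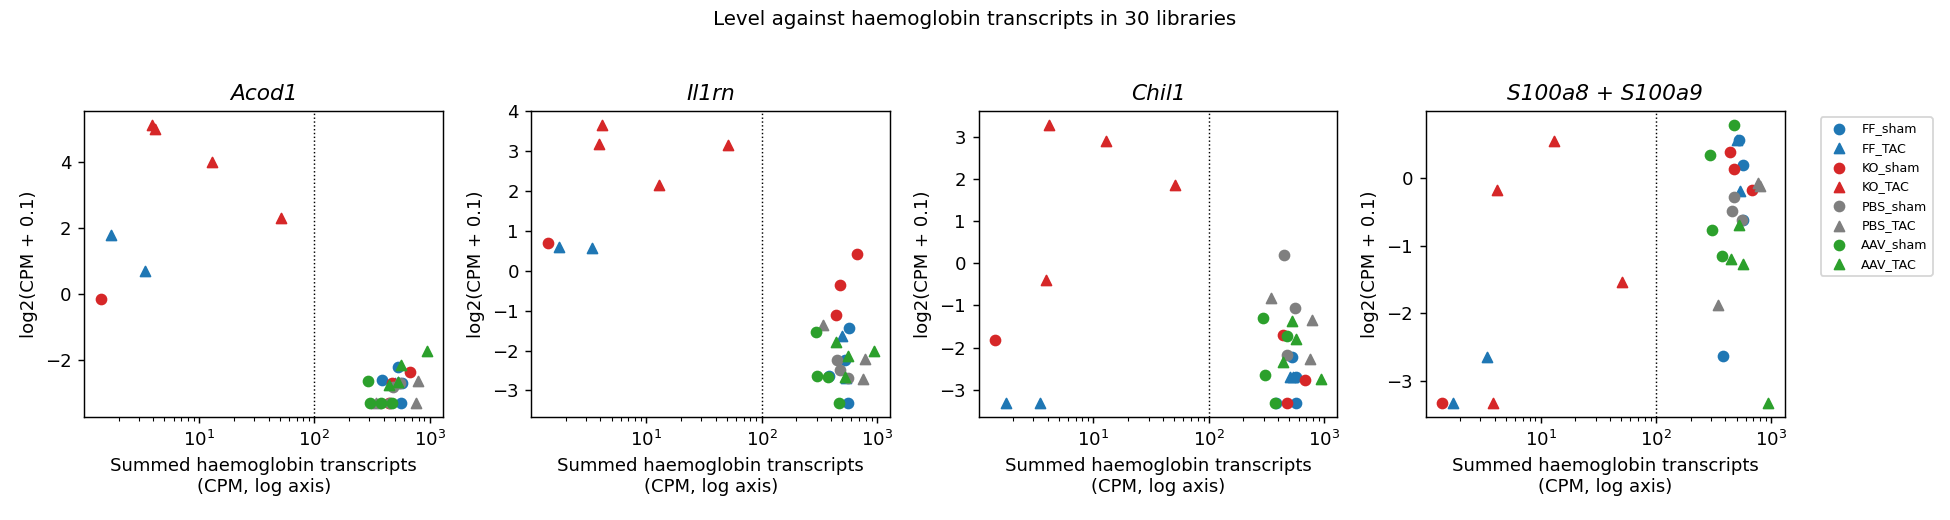
Level of Acod1, Il1rn, Chil1 and the sum of S100a8 and S100a9 (log2 of CPM + 0.1) against summed haemoglobin transcripts (CPM, log axis) in 30 libraries, with triangles for TAC and circles for sham and the dotted line at 100 CPM. All 7 libraries left of the line are above all 23 others for Acod1 and Il1rn, while Chil1 is at 0 in 2 of the 7.

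Among the arginine enzymes, Nos2 (inducible nitric oxide synthase; chromosome 11, 78920787 to 78960254, plus strand) was the 1 member that was lower in KO_TAC without overlap. KO_TAC 1 to 4 had 8.08, 3.38, 4.78 and 7.86 CPM. FF_TAC had 12.3, 15.2, 14.2 and 14.4 CPM, KO_sham had 9.91, 8.63, 14 and 13.6 CPM, and FF_sham had 21.1, 10.7, 19.0 and 14.1 CPM. Every KO_TAC value lay under every value of the other 7 groups, although against KO_sham the libraries overlapped when CPM were taken without TMM scaling. The low values did not go with the haemoglobin split in FF_TAC, where the 2 haemoglobin-low libraries had 15.2 and 14.2 CPM and the other 2 had 12.3 and 14.4 CPM. In KO_sham the haemoglobin-low library, KO_sham 2, had the lowest level, 8.63 CPM against 9.91 to 14 CPM. Arg1 (arginase 1; chromosome 10, 24915221 to 24927484, minus strand) had 10 counts or fewer in every library, with 6, 0, 7 and 3 counts in KO_TAC and 7, 4, 0 and 0 in FF_TAC, and its groups overlapped. Per length (RPKM over the summed exons of each gene), Nos2 was the highest member in FF_sham at 3.68 ± 1.07 and stood at 1.37 ± 0.526 in KO_TAC, where Acod1 was 8.42 ± 5.44 (SD, n = 4 each).

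The acute-phase members were high in some KO_TAC hearts and not in others. Lcn2 (lipocalin 2, which withholds iron carriers from bacteria; chromosome 2, 32384633 to 32388252, minus strand) had 3.10, 36.5, 30.1 and 3.22 CPM in KO_TAC 1 to 4. KO_sham gave 5.53, 2.19, 3.23 and 2.25 CPM, FF_TAC 4.39, 2.83, 1.23 and 4.20 CPM, and FF_sham 0.978, 2.40, 2.39 and 0.802 CPM. KO_TAC 2 and KO_TAC 3 exceeded every other library of the series, while KO_TAC 1 and KO_TAC 4 lay within the range of KO_sham and FF_TAC. The group mean of 18.2 ± 17.6 CPM (SD, n = 4) therefore describes no single heart. Haemoglobin-low FF_TAC libraries had less Lcn2 (2.83 and 1.23 CPM) than the haemoglobin-high ones (4.39 and 4.20 CPM).

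Saa3 (serum amyloid A3, made outside the liver; chromosome 7, 46711998 to 46715700, minus strand) had 26, 11, 48 and 2 counts in KO_TAC, or 1.28, 0.826, 2.67 and 0.119 CPM. KO_sham had 0.323, 0.365, 0.208 and 0.261 CPM, and FF_TAC had 0.329, 0.0603, 0.123 and 0.111 CPM. KO_TAC 4, low for Chil1 as well, fell within the range of FF_TAC and below every KO_sham library, and the other 3 lay above both groups. PBS_sham 2 had 2.22 CPM against 0.164 and 0.0399 CPM in the other 2 of its group, and FF_sham 2 had 0.763 CPM against at most 0.0611 CPM. Those 2 libraries had 2790 and 2958 summed CPM of 3 atrial markers, against at most 898 and 84.6 CPM in the rest of their groups. KO_TAC 1 had 9567 CPM, with 3.60 to 6.21 CPM in KO_TAC 2 to 4. AAV_sham 2, PBS_TAC 2 and KO_sham 2 had 2247, 1820 and 1671 CPM of these markers but 1, 2 and 6 counts of Saa3. PBS_sham 2 and FF_sham 2 also had 152 and 136 summed CPM of 5 adipocyte markers. PBS_sham 3, next at 92.0 CPM, had 1 count of Saa3. The part of atrial or adipose tissue in Saa3 was not tested.

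S100a8 and S100a9 (chromosome 3, 90668978 to 90670035 on the plus strand and 90692632 to 90695721 on the minus strand), the neutrophil pair, were low everywhere and not raised in KO_TAC. S100a8 had 3, 8, 7 and 0 counts in KO_TAC, 9, 0, 8 and 9 in KO_sham, 10, 0, 0 and 2 in FF_TAC and 2, 9, 6 and 0 in FF_sham. S100a9 had 2, 10, 7 and 0 counts in KO_TAC, 8, 0, 11 and 14 in KO_sham, 15, 1, 0 and 12 in FF_TAC and 7, 10, 18 and 1 in FF_sham. The groups overlapped for both genes, and the 3 haemoglobin-low libraries outside KO_TAC had 0 counts of S100a8 and at most 1 of S100a9. S100a9 was at 0 in 3 of the 7 haemoglobin-low libraries and in 1 of the other 23. KO_TAC 2 and KO_TAC 3, the hearts with the most Lcn2, had 8 and 7 counts of S100a8, within the range of the other groups. Of the 12 neutrophil markers, 5 to 7 were at 0 in each KO_TAC library, against 4 to 11 in libraries of the other groups. Ly6g and Elane, at 0 in all of KO_TAC, had 2 counts or fewer in every library. Fpr1 was higher in KO_TAC, at 0.222 to 1.47 CPM against at most 0.117 CPM in the other floxed groups. Csf3r was 2.29 to 5.39 CPM in KO_TAC, above FF_TAC (at most 1.504 CPM) but overlapping with KO_sham (1.03 to 3.11 CPM). Apart from Fpr1, Csf3r, Ltf and Cd177, the markers had 3 counts or fewer in KO_TAC. The summed level was 3.03 to 7.25 CPM in KO_TAC 2 to 4 against 1.28 to 3.64 CPM in KO_sham. KO_TAC 1 reached 127 CPM through 2206 counts of Ltf, a gene that airway glands also express.

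Against KO_sham, 4 members did not overlap with KO_TAC: Acod1, Chil1 and Il1rn were higher and Nos2 was lower, where 11.1% of all 15596 genes tested were higher without overlap and 12% lower. Against FF_TAC the same 4 members did so in the same directions, where the shares of all genes were 6.76% higher and 6.76% lower. The members were chosen on these contrasts, so nothing is read from the counts, and both contrasts share the KO_TAC libraries. Without each library in turn the number was 4 or 5. The fitted log2 differences of KO_TAC from FF_TAC were 4.16 (SE 0.91) for Acod1, 7.21 (0.998) for Chil1, 3.51 (0.67) for Il1rn, 2.91 (0.91) for Saa3, 2.51 (0.72) for Lcn2 and -1.21 (0.27) for Nos2. Chil1 had only FF_TAC counts of 0 or 1, so its value depends on the prior count and the bound given above applies. From KO_sham they were 6.63 (SE 1.10) for Acod1, 5.56 (0.84) for Chil1, 3.18 (0.65) for Il1rn, 2.07 (0.83) for Saa3, 2.45 (0.72) for Lcn2 and -0.93 (0.27) for Nos2.

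A term for the haemoglobin split in the fit moved the members unequally. The difference of Acod1 from KO_sham became 4.56 and that of Il1rn 1.73, while Chil1 stayed at 5.48 and Nos2 at -0.82. S100a9, at -0.53 (SE 1.06) from KO_sham and -0.43 (SE 1.08) from FF_TAC without the term, became 3.79 and 3.31 with it. All 4 KO_TAC libraries are haemoglobin-low, so these values rest on FF_TAC 2, FF_TAC 3 and KO_sham 2, which had 1, 0 and 0 counts of S100a9. Leaving out KO_sham 2 raised the difference of Acod1 from KO_sham to 8.59. Without KO_TAC 1 it was 6.97 for Acod1 and 5.70 for Chil1 from KO_sham, and 4.49 and 7.34 from FF_TAC, so they were as large without the library that holds lung transcripts. The difference of the 2 TAC effects (0.0449% of all genes called), also a description, was 6.06 (SE 2.28) for Chil1, 2.40 (SE 2.73) for Acod1 and 0.55 (SE 1.37) for Il1rn.

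**Figure D3:**
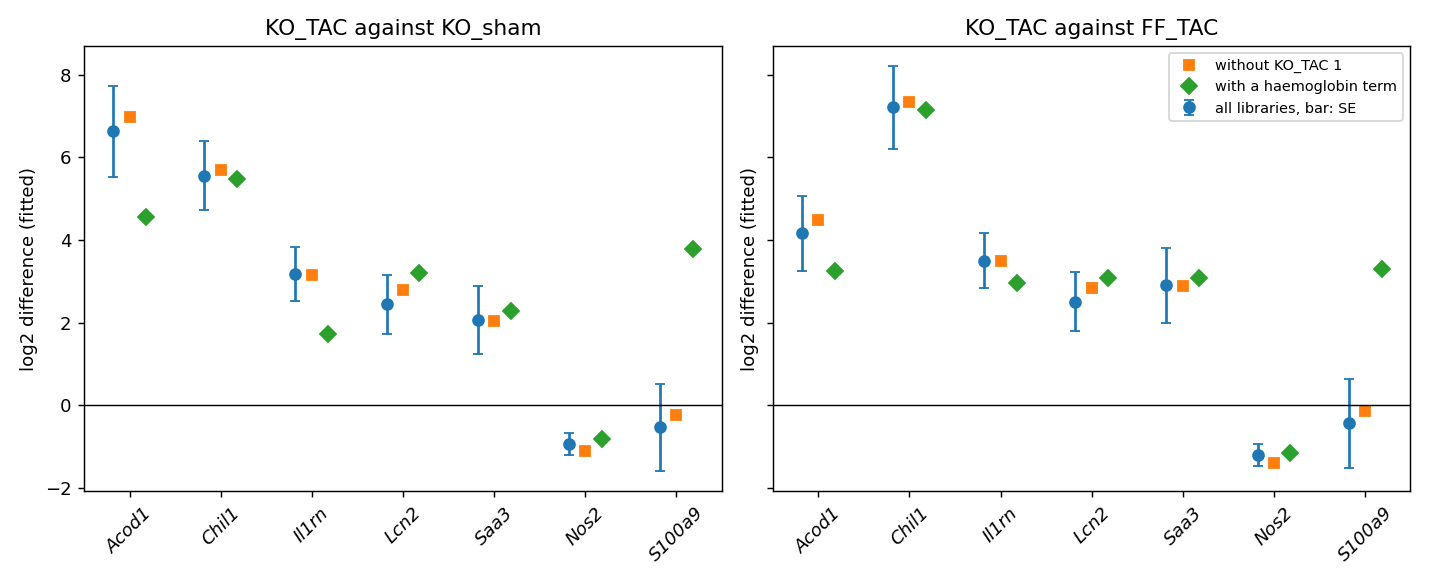
Fitted log2 differences of KO_TAC from KO_sham (left) and from FF_TAC (right) for the 7 members that passed the filter on low counts: circles with SE bars use all libraries, squares leave out KO_TAC 1, and diamonds add a haemoglobin term. Chil1, Lcn2, Saa3 and Nos2 stay near their values, Acod1 and Il1rn come down with the term, and S100a9 moves from below 0 to above 3.

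Marker sums of other cell types differed in whether they moved with these genes. Of 8 monocyte markers the summed level was 82.4 to 118 CPM in KO_TAC, 31.3 to 45.9 in KO_sham, 19.1 to 51.3 in FF_TAC and 16.1 to 28.9 in FF_sham, with at most 1 marker at 0 in a KO_TAC library. The sum in KO_TAC was led by Cd14 (40.2 to 73.9 CPM in KO_TAC) and Vcan (28.6 to 47.5 CPM), whereas Ccr2 was 0.490 to 3.33 CPM in KO_TAC and 2.06 to 17.2 in KO_sham. The summed level of 12 macrophage markers was 499 to 580 CPM in KO_TAC, inside the 401 to 820 CPM of KO_sham and above the 310 to 346 CPM of FF_TAC. The sum of 6 fibroblast markers was 1933 to 2260 CPM in KO_TAC, above the 845 to 1222 CPM of KO_sham and the 903 to 968 CPM of FF_TAC. It was led by Dcn, at 810 to 1113 CPM in KO_TAC and 451 to 720 in KO_sham, and Col1a1 and Postn also lay above KO_sham. Col1a2 overlapped with KO_sham, as did Pdgfra (17.3 to 39.4 CPM in KO_TAC, 32.4 to 38.1 in KO_sham) and Tcf21 (8.83 to 20.4 and 9.07 to 13.2 CPM). The sum of 6 hepatocyte markers, at 3.54 to 24.5 CPM in KO_TAC, overlapped with the 2.85 to 8.99 CPM of KO_sham and lay above the 1.78 to 2.90 CPM of FF_TAC. Within that list Ahsg was 1.47 to 20.9 CPM in KO_TAC, while Alb and Serpina1a were at 0. For 6 markers of alternatively activated macrophages other than Chil3 and Arg1, the sum was 7.08 to 14.6 CPM in KO_TAC 2 to 4 and 55.0 CPM in KO_TAC 1. It was 27.3 to 38.3 CPM in KO_sham and 14.97 to 19.5 CPM in FF_TAC, so KO_TAC 2 to 4 lay below both groups and KO_TAC 1 above them. The part of these cell types and of the early response genes in the member levels was not tested.

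In comparisons that the choice of members did not use, edgeR's quasi-likelihood test called none of the members at an adjusted p under 0.05, and DESeq2 also called 0. Of the 10, 7 passed the filter on low counts in the floxed cohort (all but Chil3, Arg1 and S100a8). Acod1, Chil1 and Saa3 reached 10 counts in 4 libraries only with KO_TAC included. They entered through the group for which the set was drawn up, so no p is given for them and their differences are descriptions. FF_TAC and KO_sham are also the reference groups of the contrasts above. For FF_TAC against FF_sham, edgeR called 0% of genes (DESeq2 168 genes) and gave 11.1% an unadjusted p under 0.05, Il1rn among them. Acod1 gave a log2 difference of 4.24 (SE 1.47), with 2 of 4 FF_TAC libraries above all FF_sham libraries. It was at least 7.10-fold higher in mean CPM, which rests on those 2 libraries. Il1rn gave 2.63 (SE 0.92, edgeR adjusted p = 0.352, and 0.120 to 0.887 without each library in turn). With the haemoglobin term the values became 0.54 for Acod1 and 1.18 for Il1rn, and Il1rn was again not called by edgeR. Within the 2 haemoglobin-high FF_TAC libraries Acod1 was 0.0548 and 0.0553 CPM, within the 0 to 0.114 CPM of FF_sham, and Il1rn was 0.219 and 0.0553 CPM, within the 0 to 0.273 CPM of FF_sham. The FF_TAC libraries above FF_sham for both genes were the 2 whose Cpt1a goes against their label.

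For KO_sham against FF_sham, edgeR again called 0% of genes (DESeq2 3 genes) and gave 5.22% an unadjusted p under 0.05, Il1rn being the 1 member among them. Its log2 difference was 2.96 (SE 0.89, edgeR adjusted p = 0.840), higher in 4 of 4 KO_sham libraries than in any FF_sham library, and 3.23% of all genes were higher without overlap. It was 2.66 without KO_sham 2 and 2.40 with the haemoglobin term (edgeR adjusted p = 0.879 and 0.825). The mean was 0.112 ± 0.117 CPM in FF_sham and 0.952 ± 0.525 CPM in KO_sham (SD, n = 4 each). Nos2 differed by -0.49 (SE 0.26, edgeR adjusted p = 0.989), which does not show that it was alike in the 2 groups.

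No heart of the AAV9 cohort came near the KO_TAC levels of Acod1 or Il1rn. All 14 libraries of this cohort were haemoglobin-high, whereas all 4 of KO_TAC were haemoglobin-low. The 9 haemoglobin-high libraries of the floxed cohort had 0 to 0.114 CPM of Acod1 and 0 to 1.24 CPM of Il1rn. The part of the haemoglobin split in this difference was not tested. Acod1 had 4 counts or fewer in each of the 14 libraries, Il1rn 5 or fewer and Chil3 3 or fewer, and only Nos2, Lcn2 and S100a9 passed the filter. Chil1 had 7, 19 and 3 counts in PBS_sham, 5, 8 and 2 in PBS_TAC, 4, 5, 0 and 1 in AAV_sham and 1, 5, 3 and 2 in AAV_TAC. Its groups overlapped, and its highest library, PBS_sham 2, was also the highest for Saa3. S100a8 had 12, 6, 2 and 4 counts in AAV_sham and 0, 1, 2 and 1 in AAV_TAC, which overlapped at 2 counts.

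Lcn2 was lower in the PBS_TAC libraries than in those of PBS_sham, with 2.36, 1.5 and 1.84 CPM in PBS_sham and 0.995, 0.980 and 0.847 CPM in PBS_TAC. The groups did not overlap, as was so for 6.57% of all genes in that direction, and the log2 difference was -1.01 (SE 0.44, edgeR adjusted p = 0.252). In that comparison 0.0318% of the 15745 genes tested were called. In mice given AAV9.Cpt1a, Lcn2 was 1.11, 2.08, 1.29 and 0.969 CPM after sham surgery and 0.750, 2.88, 1.01 and 1.58 CPM after TAC, with an overlap and a log2 difference of 0.19 (SE 0.38, edgeR adjusted p = 0.995). The test of the difference between these 2 TAC effects gave 1.20 (SE 0.58, edgeR adjusted p = 0.688), so a difference was not shown.

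Nos2 was 20.7, 17.6, 19.4 and 19.7 CPM in AAV_TAC and 16.9, 14.7 and 12.3 CPM in PBS_TAC. AAV_TAC lay above PBS_TAC without overlap, as did 4.19% of all genes, and the log2 difference was 0.41 (SE 0.18, edgeR adjusted p = 1.0), with 0.0381% of genes called. S100a9 was lower in AAV_TAC than in AAV_sham by a log2 value of -1.29 (SE 0.73, edgeR adjusted p = 0.797), with overlapping libraries. An unadjusted p under 0.05 was reached by 1 member for PBS_TAC against PBS_sham (Lcn2), by 1 for AAV_TAC against PBS_TAC (Nos2) and by 0 in the other 3 comparisons of the cohort. The share of all genes at that threshold is not given for this cohort, so nothing is read from these counts. By edgeR 0.00635% of genes were called for AAV_TAC against AAV_sham and for the vector-by-TAC term and 0.0127% for AAV_sham against PBS_sham.

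Genes that act with the members were counted in 6 lists, members left out, for KO_TAC against FF_TAC, where 14.3% of all genes were called, 7.53% higher and 6.8% lower. Over the lists 17 of 76 tested genes were higher and 5 lower. For FF_TAC against FF_sham edgeR called 0 of the 76, with 27 at an unadjusted p under 0.05 and 12 called by DESeq2. For KO_sham against FF_sham it called 0, with 15 at an unadjusted p under 0.05 and 1 called by DESeq2. For the knockout-by-TAC term it called 0 (12 unadjusted, 3 by DESeq2, with 0.0449% of all genes called by edgeR). In the 5 comparisons of the AAV9 cohort it called 0 of 74 (6 to 27 unadjusted, 0 to 5 by DESeq2). The share of all genes at an unadjusted p under 0.05 is not given for that term or that cohort, so nothing is read from those unadjusted counts. The lists were drawn up with earlier results known. For KO_TAC against FF_TAC their p-values rest on the libraries for which the members were chosen, so counts and p-values alike are descriptions. In the acute-phase and STAT3 list 7 of 15 tested genes rose and 0 fell, with a median log2 difference of 1.46 against 0.04 for all genes. Serpina3n, an acute-phase protease inhibitor, went from 11.4 ± 6.66 to 207 ± 183 CPM (log2 difference 4.18, SE 0.71, edgeR adjusted p = 0.00219). Timp1, an inhibitor of matrix proteases, went from 7.42 ± 5.99 to 104 ± 61.6 CPM (3.82, SE 0.66, edgeR adjusted p = 0.00238). Lbp, which presents bacterial lipid to its receptors, and Cp, the copper carrier ceruloplasmin, rose by 1.46 (SE 0.25) and 0.87 (SE 0.16). The count was 6 without KO_TAC 1 and 5 with the haemoglobin term, and these 4 genes were called in both. Over all genes the calls went from 2235 to 3845 without KO_TAC 1 and fell with the haemoglobin term. The share of 14.3% therefore does not apply to these counts.

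Of the 14 arginine and nitric oxide genes tested besides Nos2 and Arg1, 4 rose and 0 fell. Ass1 and Asl, which regenerate arginine from citrulline, rose by 1.35 (SE 0.19, edgeR adjusted p = 0.000865) and 0.63 (SE 0.19, edgeR adjusted p = 0.0425) on the log2 scale. Slc7a2, an arginine transporter, rose by 1.98 (SE 0.46, edgeR adjusted p = 0.0115) and Ddah2, which breaks down an inhibitor of nitric oxide synthases, by 0.39 (SE 0.12, edgeR adjusted p = 0.0427). With the haemoglobin term 1 of the 14 was called, Ass1 at 1.12 (edgeR adjusted p = 0.00441), while Slc7a2 at 1.61, Asl at 0.51 and Ddah2 at 0.34 were not (edgeR adjusted p = 0.0545, 0.159 and 0.154). Ddah2 was also not called with the replicate block (edgeR adjusted p = 0.0651) or without KO_TAC 1 (edgeR adjusted p = 0.0772).

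Of 16 itaconate targets and breakdown genes, 3 rose and 3 fell. Sdha, the succinate dehydrogenase subunit that itaconate inhibits, fell by 0.48 on the log2 scale (SE 0.09, 1361 ± 69.3 to 973 ± 85.8 CPM, edgeR adjusted p = 0.00373). Auh, a hydratase of leucine breakdown, fell by 0.50 (SE 0.13), and Hmox1 and Txnrd1, targets of the redox factor Nrf2, rose by 1.74 (SE 0.43) and 0.42 (SE 0.11). With the haemoglobin term Sdha, Auh and Hmox1 were still called and Txnrd1 was not (edgeR adjusted p = 0.105).

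In the interleukin-1 and Toll-like receptor list 2 of 19 rose and 0 fell: Il1r1, the receptor that Il1rn blocks, by 0.56 (SE 0.16, edgeR adjusted p = 0.0263) and the adaptor Myd88 by 0.86 (SE 0.25, edgeR adjusted p = 0.0304). Neither was called with the haemoglobin term, under which the difference of Il1r1 was again 0.56 (edgeR adjusted p = 0.0756) and that of Myd88 was 0.50 (edgeR adjusted p = 0.0752). The term left 0 of 19 called by edgeR and 6 at an unadjusted p under 0.05. Of 5 tested genes of the chitinase family and the receptors of Chil1, Cd44 rose by 1.66 (SE 0.40, edgeR adjusted p = 0.0133), and it remained called with the haemoglobin term at 1.25. Of 11 receptors and partners of the secreted members, 1 rose, again Il1r1, and 2 fell: Cd36 by 0.63 (SE 0.11) and Scarb1 by 0.44 (SE 0.10), both scavenger receptors. With the haemoglobin term Cd36 was still called and Scarb1, at -0.37, was not (edgeR adjusted p = 0.0648). Against KO_sham, where 25.8% of all genes were called (14.3% higher, 11.5% lower), 27 of the 76 list genes rose and 5 fell, and with the haemoglobin term 1 rose and 1 fell.

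**Figure D4:**
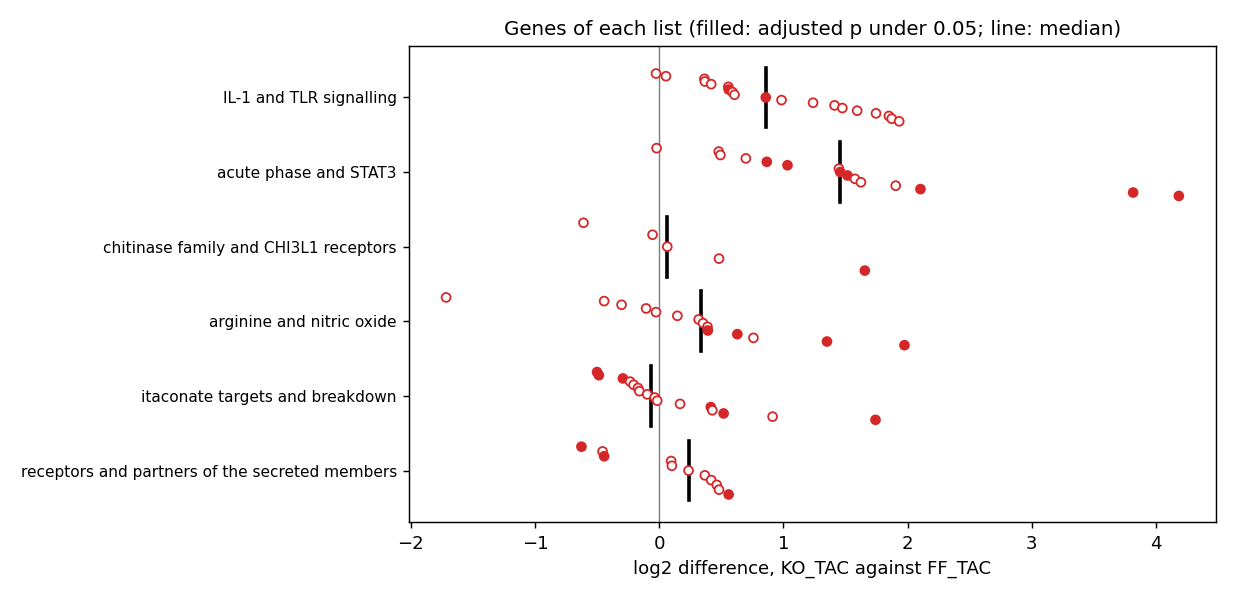
Log2 difference of KO_TAC from FF_TAC for the tested genes of 6 lists (members left out); each dot is a gene, filled dots have an edgeR adjusted p under 0.05, and vertical lines are list medians. The acute-phase and STAT3 list has its median at 1.46, and the itaconate list lies around 0 with 3 genes called on each side.

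The genes whose log2 CPM over 30 libraries was most like that of Acod1, among 14959 compared, were Ifnb1 (Pearson's r = 0.97), Gpr84 (0.97), Slfn2 (0.96), Cxcl10 (0.96) and Tlr2 (0.96). For Chil1 they were Sdf4 (0.92), Prg4 (0.92), Serping1 (0.90), Tubb3 (0.88) and Serpine2 (0.88), and none was shared between the members. These are descriptions, since the libraries share the few high KO_TAC samples: Spearman's rho was 0.53 to 0.63 for the genes like Acod1, which ranked 56 to 375 by that measure, and 0.58 to 0.78 for those like Chil1, which ranked 13 to 373. Acod1 and Chil1 themselves had a Pearson's r of 0.64.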

How the data were processed

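The authors deposited a table of raw read counts per gene for 30 libraries; per the submitters' processing notes the tools were HISAT2 2.1.0 and featureCounts of Subread 1.5.1 on GRCm38. The libraries were poly(A)-selected and stranded, per the labels; the strand setting of the counting and the annotation release are not given in the sources used here. Symbols were matched for 55141 of 55487 identifiers, and the rest held 0.0192% of counts. No member shares exon sequence with another annotated gene. Each cohort was fitted with edgeR 4.0.16 in R 4.3.3 (TMM, filterByExpr, quasi-likelihood F test, 1 mean per group, Benjamini-Hochberg over all genes tested; 15596 and 15745 genes). DESeq2 1.42.0, RLE size factors, no filter, a replicate block, a haemoglobin term (summed CPM under 100) and leaving out each library were alternatives. Floors are 3 counts per library and cover counting error only. The script was tested on simulated data. The members, lists and the haemoglobin term were chosen with earlier results of these data known. Of each list at most 4 genes are named, those with the smallest p among genes called for KO_TAC against FF_TAC; for likeness, the 5 highest Pearson's r were taken, among genes at 1 CPM or more in some group. No within-group pair of libraries agreed within sampling noise (chi-square per degree of freedom 6.80 or more). P-values weigh a difference of group means against the spread between hearts, pooled over the groups of a cohort. In the floxed cohort that spread includes the libraries whose Cpt1a goes against their label. The counts of list genes under the alternatives were added after the data were seen.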

Additional observations from a re-analysis of the deposited data

Results flagged for a closer look

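In 5 of 60 sets of 4 libraries (a member in a group of 4), 1 library stood far from the other 3. This was measured as the gap to its nearest neighbour over the whole range. Chance alone gives about 1 in 20 for normally distributed values. Counts near 0 are not such values, since 1 count against 0 in the other 3 already gives the highest ratio, so the 5 are not set against that rate. The library labelled KO_sham 2 appeared here for Acod1, at 0.790 CPM (13 counts) against at most 0.0922 CPM in the other 3, and for S100a8, at 0 CPM against 0.415 to 0.470 CPM. It was also the haemoglobin-low library of its group and the one with the Cpt1a level of a floxed heart. Chil3 in KO_sham 1 was 0.415 CPM (9 counts) against at most 0.0523 CPM. Saa3 in FF_sham 2 was 0.763 CPM (14 counts) against at most 0.0611 CPM, in a heart with atrial and adipocyte transcripts. Acod1 in AAV_sham 2 was 0.0613 CPM, which is 1 count against 0 in the other 3. Groups of 3 libraries were not examined in this way.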

How the results depend on the processing

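No member was called under any alternative in the 7 comparisons that were tested, the replicate block (0 members called) included; DESeq2 gave Il1rn no adjusted p for KO_sham against FF_sham. Same-numbered libraries were not shown to be paired: the correlation of their deviations ran from -0.41 to 0.45, was over 0.1 in 11 of 29 pairs and was highest with the own number in 9. The number of members that did not overlap with KO_TAC was 4 in both contrasts and 3 against KO_sham on CPM without TMM scaling.

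The list genes called against KO_sham went from 27 higher and 5 lower to 1 and 1 with the haemoglobin term, and to between 19 and 36 higher and 2 and 9 lower when each library was left out in turn. Against FF_TAC they went from 17 higher and 5 lower to 8 and 3 with that term, and to between 8 (without FF_TAC 4) and 20 higher and 4 and 7 lower. The count was 9 higher without KO_TAC 3 and 10 without FF_TAC 1. The cause was not tested.

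Over all genes the haemoglobin term took the calls from 4031 to 273 against KO_sham and from 2235 to 1127 against FF_TAC. Leaving out each library gave 1956 (without KO_TAC 3) to 6441 (without KO_TAC 1) against KO_sham and 1124 (without FF_TAC 4) to 3845 (without KO_TAC 1) against FF_TAC. The knockout-by-TAC term had 7 calls, 17 without the filter, 19 with the replicate block, 377 with DESeq2, 0 with the haemoglobin term and 0 to 215 without each library. FF_TAC against FF_sham had 0 calls, 168 with DESeq2 and up to 27 without FF_TAC 1, and KO_sham against FF_sham had 0 and, with DESeq2, 3. In the AAV9 cohort PBS_TAC against PBS_sham had 5 calls, 112 without the filter, 2 with the block, 370 with DESeq2 and up to 1796 without PBS_sham 1. AAV_sham against PBS_sham had 2, 182, 0, 373 and up to 2821 without PBS_sham 1, in the same order. AAV_TAC against AAV_sham had 1, 29, 0 and 117, AAV_TAC against PBS_TAC 6, 14, 7 and 35, and the vector-by-TAC term 1, 5, 2 and 16. Depth limits Chil3, Arg1, S100a8 and, outside KO_TAC, Acod1 and Chil1, where a few counts separate libraries.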
